A study of Rattus norvegicus with 11 samples.

Results

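In the small RNA profile of rat pancreatic islets, 110 of 950 rows counted reads on the strand opposite an annotated mature miRNA, and 77 of them are described here. They were chosen by name: every row tagged antisense was kept except those of Ensembl transcripts (11 rows) and those of miR-3065, miR-3074, miR-3120, miR-3556, miR-3567, miR-3581 and miR-3596 (22 rows). The 77 rows carry 75 names, of 898 names in the whole table. The libraries came from islets of Sprague-Dawley rats without any treatment or transgene, 5 from control pups aged 10 days (P10, replicates 1, 3, 4, 5 and 6) and 6 from males aged 3 months (adult, replicates 1 to 6). The labels call them biological replicates and do not say whether a library pools animals, so p-values measure the spread between these libraries. Age and sex cannot be told apart, since the adults are males and the sex of the pups is not used here.

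A miRNA is cut from a hairpin RNA, and either arm of the hairpin, 5p or 3p, can give a mature strand of about the length of the reads counted here. Bases 2 to 8 of the mature strand, the seed, select its target mRNAs. Because a hairpin sequence read from the other DNA strand also folds into a hairpin, some miRNA genes lie face to face on opposite strands of the same place. A read counted antisense to one such gene then carries the sequence of the gene facing it.

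Library totals ran from 1432929 to 4483017 counts, and 1 count was 0.223 to 0.698 CPM, the unit of all levels below, which scales the counts of each library to a fixed total. The labelled tissue was checked against islet endocrine miRNAs (miR-375, miR-7, miR-184 and miR-204), whose summed level was 115958 to 168725 CPM at P10 and 257008 to 329303 CPM in adults. Nearly all of that sum was miR-375-3p, at 113156 to 165984 CPM at P10 and 251238 to 325026 CPM in adults. Of the 9 tested endocrine features, 6 were higher in adults, 1 was lower and 2 did not pass. Among markers of other cells, the 6 mesenchymal features (miR-143, miR-145 and miR-199a) summed to 33246 to 61126 CPM at P10 and 17172 to 58287 CPM in adults, and 4 of them were lower in adults. The 7 leukocyte features summed to 681 to 1427 CPM at P10 and 249 to 832 CPM in adults (1 lower), and the 6 acinar features to 22.2 to 37.7 and 28.6 to 127 CPM (2 higher). The 4 erythroid features summed to 24.2 to 72.3 and 14.5 to 63.7 CPM, and neither tested feature passed. The 5 neuronal and glial features (miR-124 and miR-219-1) summed to 6.72 to 14.5 CPM at P10 and 6.12 to 13.7 CPM in adults, and the 1 tested did not pass. Endothelial miR-126 was not analysed here. In whole islets, fewer cells of a type and less RNA per cell cannot be told apart, and the part that these cell types play in the age differences below was not tested.

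The rows were put into a larger and a smaller group by name and by place. In the first, 49 rows (47 names, 26 genes) are named in the series from miR-3543 to miR-3597 and belong to genes that overlap another miRNA gene in RefSeq (assembly GRCr8). The strand of both genes was listed for 21 of these 26 pairs, and all 21 lay on opposite strands. These 49 rows held 1323592 of the 1323711 counts of all 77 rows, with a median of 486 counts a row and a maximum of 750122. The facing genes are well known ones, among them Mir191, Mir434, Mir31, Mir203, Mir210, Mir218-1, Mir181a-1, Mir200a and Mir200c. No sense row carried the name of any of the 26 facing loci among the rows analysed here. In the second group are all others, 28 rows (25 genes), of which 5 also face a miRNA gene but carry another kind of name, and they held 119 counts in all, with a median of 1.5 and a maximum of 29 counts a row.

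The following mature sequences from RefSeq (GRCr8) are shown for rows on which the results below turn, since they show which sequence an antisense count stands for. Each pair gives first the mature strand of the facing gene and then the strand that the row is named after, 5′ to 3′, with the seed in capitals.
miR-191a-3p (faces miR-191b, row miR-3555-5p): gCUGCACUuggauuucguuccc
miR-191b: gAACGAAAuccaagugcagcu
miR-434-3p (faces miR-3543, row miR-3543-5p): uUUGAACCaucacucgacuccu
miR-3543: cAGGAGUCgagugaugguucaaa
miR-31a-5p (faces miR-31b, row miR-3554-3p): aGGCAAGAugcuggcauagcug
miR-31b: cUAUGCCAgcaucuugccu
miR-218a-5p (faces miR-218b, row miR-3565-3p): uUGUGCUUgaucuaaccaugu
miR-218b: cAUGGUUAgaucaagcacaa
miR-203a-3p (faces miR-203b-5p, row miR-3545-5p): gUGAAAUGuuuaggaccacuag
miR-203b-5p: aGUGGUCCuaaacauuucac
miR-210-3p (faces miR-3574, row miR-3574-5p): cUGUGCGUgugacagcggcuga
miR-3574: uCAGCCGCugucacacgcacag
miR-200a-5p (faces miR-3548, row miR-3548-3p): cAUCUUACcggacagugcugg
miR-3548: cAGCACUGuccgguaagaugcc

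For the following rows the mature strand of the facing gene is in the RefSeq table and that of the row's own arm was not used here.
miR-191a-5p (row miR-3555-3p): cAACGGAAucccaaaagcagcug
miR-31a-3p (row miR-3554-5p): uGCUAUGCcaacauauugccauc
miR-193a-3p (row miR-3549-5p): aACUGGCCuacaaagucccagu
miR-200c-3p (row miR-3575-5p): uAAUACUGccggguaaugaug
miR-376a-5p (row miR-3595-3p): gGUAGAUUcuccuucuaugag

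Of the rows that face Mir181a-1 and Mir378 and differed with age, these are the own mature strands.
miR-3570 (row miR-3570-5p): gGUACAAUcaacggucgauggu
miR-3557-5p: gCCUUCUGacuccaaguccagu
miR-3557-3p: aCACAGGAccuggagucaggag

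In RefSeq, 30 pairs of annotated mature strands overlapped across the strands of the members' genes, by 16 to 22 bases. All 30 joined opposite arms, so that a row named 5p lies against the 3p strand of the facing gene and the reverse, and in all 30 the overlapping bases were fully complementary, as 2 strands of 1 place must be. The seeds within a pair differ: reads counted as miR-3543-5p antisense would carry the miR-434-3p seed UUGAACC in place of the miR-3543 seed AGGAGUC. Among the listed facing and own mature strands of the larger group, miR-299a-3p shared the seed AUGUGGG with miR-299b-3p. Likewise miR-299a-5p shared the seed GGUUUAC with miR-299b-5p, while no other seed was shared among the listed strands. A facing strand was listed for 39 and an own strand for 27 of the 49 rows, and the rest were not compared. The mature miR-218a-5p is also made by Mir218-2, and miR-9a-5p, which rows of miR-3597-1, miR-3597-2 and miR-3597-3 face, is made by all 3 Mir9 genes. Rows of such multi-copy sequences are uncertain, since no source used here says how the authors' counting placed their reads.

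Sense rows near the larger group lay almost all on the facing strand. A total of 331 pairings of a row of the larger group with a sense row within 10000 bases were found, around 23 rows, and in 329 of them the sense neighbour lay on the strand opposite to the row's gene, which is the strand of the antisense reads. For the smaller group this held in 1 of 45 pairings. The pairings are not independent, since a neighbour is counted again for both arms of a gene and for adjacent genes. They compare annotated strands and not read counts, and the groups were themselves formed by name and place. The source of the reads was not tested by them. Most pairings of the larger group came from the imprinted Dlk1-Dio3 domain of chromosome 6. Its rows there had 11 to 26 neighbours each, against 2 to 8 for rows with neighbours elsewhere. In the smaller group the rows of both miR-337 arms, also in that domain, had 13 each. Clustered miRNA genes are usually transcribed together from 1 strand.

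A sense row at the same place, on the same strand and with the same name existed for 30 of the 77 rows, 5 in the larger and 25 in the smaller group. In 4 of these 30 pairs the antisense row held nearly all reads. The row of miR-3548-3p (faces Mir200a) held 1142 antisense and 2 sense counts over the 11 libraries, or 99.8% antisense (exact Clopper-Pearson 95% interval 99.4% to 99.98%). For miR-3575-3p (faces Mir200c) the counts were 190 and 1, or 99.5% (97.1% to 99.99%). For miR-3563-3p (faces Mir299) they were 91 and 2, or 97.8% (92.4% to 99.7%), and for miR-3555-5p (faces Mir191) 398 and 17, or 95.9% (93.5% to 97.6%). These intervals, like those below, cover counting error only, as no molecular identifiers are stated and reads are not independent molecules.

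The remaining 26 pairs had antisense shares of at most 36.4%, and none lay between that value and 95.9%. Among the highest of them were miR-2964-3p with 4 antisense and 7 sense counts, miR-130a-5p with 6 and 18, and miR-33-3p with 19 and 77. The miR-219-1 gene gave 11 antisense and 144 sense counts at its 3p arm, or 7.10% (3.60% to 12.3%), and 8 and 87 at its 5p arm. The miR-3545-3p row (faces Mir203) was the 1 pair of the larger group on the low side, with 3 antisense and 65 sense counts. For miR-24-3p the counts were 29 and 11512, or 0.251% (0.168% to 0.361%). The most abundant islet miRNA, miR-375-3p, had 1 antisense count beside 5689115 sense counts, and miR-181a-5p had 1 beside 226733. The plot of antisense shares shows all 30 pairs.

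**Figure D1:**
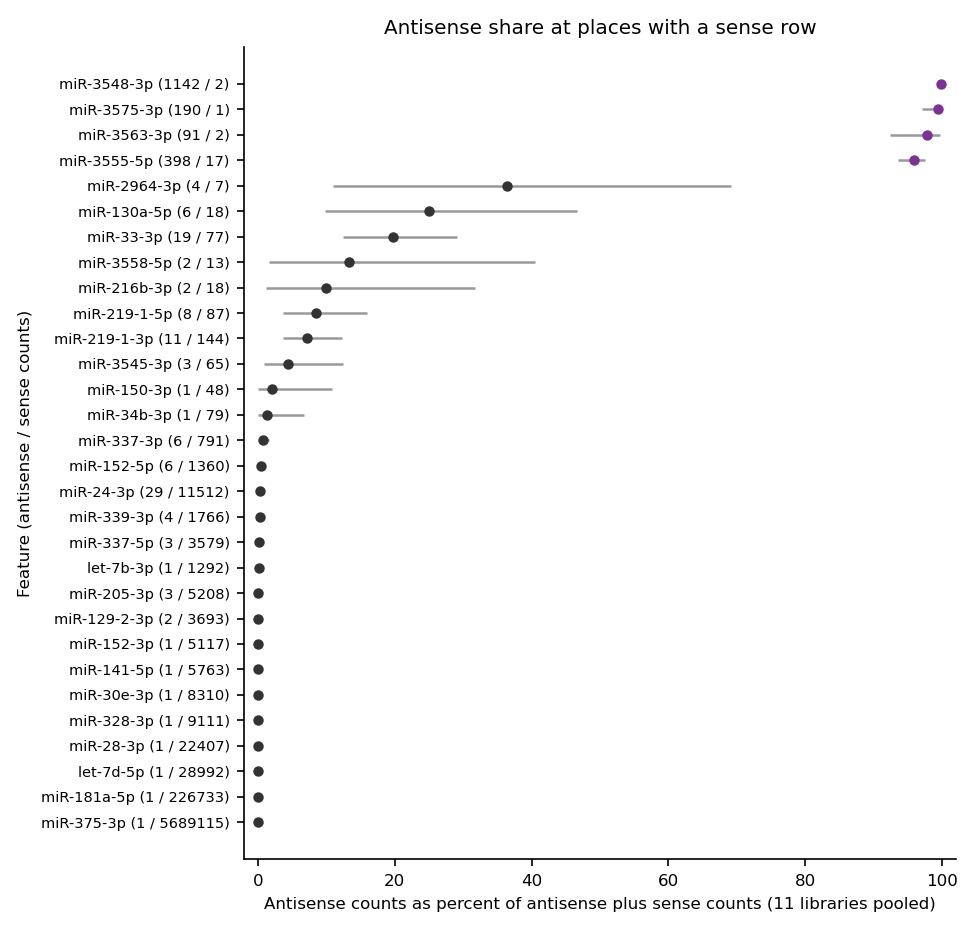
Each point is the antisense share of antisense plus sense counts (x axis, percent, 11 libraries pooled) at 1 place with both rows (y axis, counts in parentheses), and bars are exact 95% Clopper-Pearson intervals. The 4 pairs in purple lie at 95.9% to 99.8% and the other 26 at 36.4% or below.

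Besides the pairs above, the smaller group held 6 counts each for miR-152-5p and miR-337-3p, 4 for miR-339-3p, 3 each for miR-205-3p and miR-337-5p, and 2 each for miR-129-2-3p, miR-216b-3p and miR-3558-5p. Another 14 rows had 1 count each, namely those of miR-141-5p, miR-150-3p, miR-152-3p, miR-181a-5p, miR-28-3p, miR-30e-3p, miR-328-3p, miR-34b-3p, miR-3573-5p, miR-375-3p, miR-497-3p, miR-6334-3p, let-7b-3p and let-7d-5p. Facing genes exist for 5 rows of this group as well: Mir3590 for miR-130a-5p, Mir219-2 for miR-2964-3p, Mir3544 for both arms of miR-337, and Mir3596b for let-7d-5p.

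In the larger group a single row dominated. The miR-3555-3p antisense row (chromosome 8, 116698877 to 116698897 in Rnor_5.0), which faces the 5p arm of Mir191, made up 2.69% to 4.29% of all counts at P10 and 2.15% to 2.73% in adults. It held 51.6% to 71.4% of the counts of all 77 rows in each library. Its opposite arm, miR-3555-5p, held 398 counts, so that the 5p row was 0.0530% of both. The miR-3543-5p row (chromosome 6, 142878474 to 142878496), which faces miR-434-3p of the imprinted Dlk1-Dio3 domain, followed with 281951 counts. A second row of that name, 870 bases away, held 29125 counts, and its share of both ran only from 8.11% to 10.0% over the 11 libraries. Next came miR-3586-5p (faces Mir151) with 55474 counts, miR-3557-5p (faces Mir378) with 52556, miR-3588-3p (faces Mir125b2) with 46671, miR-3548-5p (faces Mir200a) with 29249, miR-3554-3p (faces Mir31) with 20197 and miR-3588-5p with 17824.

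All 77 rows together made up 5.09% to 6.02% of the counts at P10 and 3.91% to 4.26% in adults, so the ranges did not overlap. With TMM scaling the summed levels of the 75 names did overlap, at 43815 to 63704 CPM at P10 and 40243 to 49667 CPM in adults. That sum takes the highest row of each name, without the lesser rows of miR-3543-5p (29125 counts) and miR-3586-5p (2141 counts). The percentages are shares of a total, in which the sense row of miR-375-3p rose by 1.01 on the log2 scale (edgeR adjusted p = 8.67e-06). The part of that rise in the lower share of the rows was not tested. The comparison of single features below uses TMM scaling, which is less bound to such a change.

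Adult and P10 islets were compared for every feature by edgeR's quasi-likelihood test, with Benjamini-Hochberg adjustment over the 457 features that passed the abundance filter. Of the 75 names, 34 were tested, all in the larger group, and 41 had too few counts. In adults 9 of the 34 were lower, 3 were higher and 22 did not pass, which is 35.3% called, against 50.8% of all tested features (21.2% called higher and 29.5% called lower). The CPM ranges of the ages did not overlap for 7 of the 34, against 30.0% of all features. The median log2 fold change was -0.25 for the 34 and -0.11 for all features. Of the 20 other named antisense features, left out by the rule, 17 were tested, with 8 higher and 5 lower. Of the 30 sense features at the rows' own places, 17 were tested, with 6 higher and 3 lower.

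**Figure D2:**
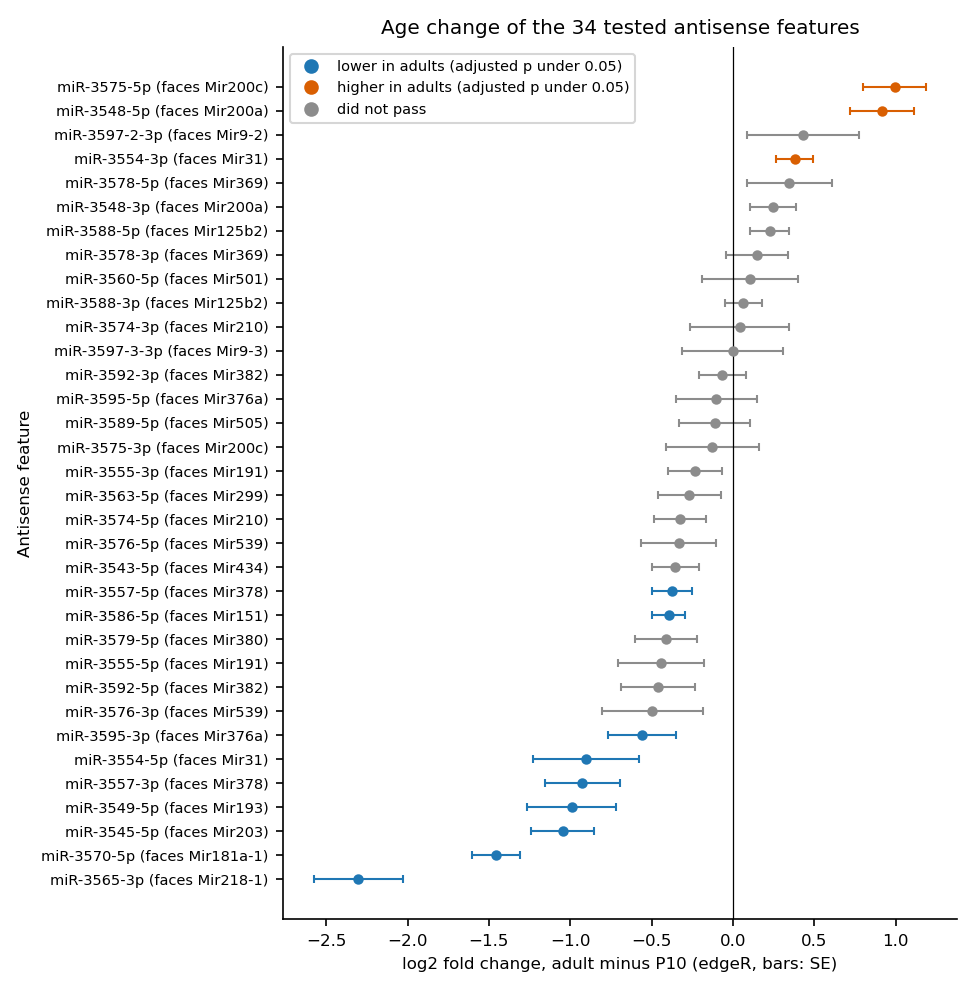
The log2 fold change from P10 to adult (x axis, edgeR, bars are SE) is drawn for each of the 34 tested antisense features (y axis, facing gene in parentheses), blue for lower, orange for higher and grey for not passed. The points run from -2.30 for miR-3565-3p to 0.99 for miR-3575-5p.

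Reads antisense to miR-3565-3p, on the strand of miR-218a-5p from Mir218-1 (a miRNA of an intron of Slit2), fell furthest. The P10 libraries had 18.8, 26.2, 22.4, 17.4 and 27.0 CPM, and the adult libraries had 2.21 to 6.87 CPM with a median of 4.71. The groups did not overlap, and every adult library was far below every P10 library. The log2 fold change was -2.30 ± 0.27 (SE, adjusted p = 1.37e-05 by edgeR), a 4.94-fold fall. The sense row miR-218-5p at the Mir218-2 copy on chromosome 10 also fell, from 37.5 ± 8.72 to 14.8 ± 7.96 CPM (log2 fold change -1.38 ± 0.31, edgeR adjusted p = 0.00245), but both copies make 1 mature sequence and reads of the 2 may not be separable.

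The row of miR-3570-5p (chromosome 13, 59986129 to 59986150) faces the 3p arm of Mir181a-1, of a family that tunes immune cell signalling. Its P10 libraries had 194, 225, 224, 189 and 199 CPM, and the adults had 55.3 to 88.9 CPM with a median of 78.6. The groups did not overlap (log2 fold change -1.46 ± 0.15, edgeR adjusted p = 3.51e-06). Within 142 bases lies the sense row miR-181b1-5p, the clustered partner of Mir181a-1, which fell from 1220 ± 427 to 644 ± 247 CPM (-0.92 ± 0.26, edgeR adjusted p = 0.00934). At the second copy of the cluster, on chromosome 3, the sense row miR-181a-3p fell by 2.84 on the log2 scale (edgeR adjusted p = 1.82e-06) and miR-181a-5p by 1.03 (edgeR adjusted p = 0.000681). Reads of miR-181a-5p may come from both copies and may not be separable.

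Reads antisense to miR-3545-5p lie on the strand of miR-203a-3p, a miRNA best known for restraining the renewal of skin epithelium. P10 libraries had 85.2, 109, 119, 80.6 and 90.6 CPM and adults 35.2 to 70.3 CPM with a median of 44.4. The ranges were apart, and adult replicate 1, at 70.3 CPM, came nearest to the pups. The log2 fold change was -1.05 ± 0.19 (edgeR adjusted p = 0.000504).

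Both arms facing Mir378, a miRNA of an intron of the metabolic coactivator gene Ppargc1b, were lower in adults. The minor arm, miR-3557-3p, had 8.26, 14.8, 11.3, 9.69 and 10.6 CPM at P10 and 3.69 to 7.56 CPM with a median of 5.77 in adults, without overlap (-0.93 ± 0.23, edgeR adjusted p = 0.0044). The major arm, miR-3557-5p, had 2031, 2531, 2085, 1994 and 1947 CPM at P10 and 1347 to 2009 CPM with a median of 1646 in adults. Its groups overlapped, with P10 replicate 3 well above the rest, and the change was smaller (-0.37 ± 0.12, edgeR adjusted p = 0.0228). It missed the threshold under 5 of 21 alternatives, for example with upper-quartile scaling (-0.21, adjusted p = 0.199).

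Reads antisense to miR-3586-5p (chromosome 7, 114421166 to 114421188) face Mir151, which sits in an intron of the focal adhesion kinase gene Ptk2. P10 libraries had 1994, 2569, 2234, 2171 and 2177 CPM, and adults had 1520 to 1893 CPM with a median of 1668, without overlap (-0.40 ± 0.10, edgeR adjusted p = 0.00514). The change was small, and the call was kept under every alternative except upper-quartile scaling (-0.23, edgeR adjusted p = 0.107). Another row of the name starts 40 bases away and held 2.69% to 5.53% of the counts of both, 4.22% ± 0.803 at P10 and 3.27% ± 0.633 in adults (SD, n = 5 and 6, two-sided exact permutation p = 0.0498, unadjusted).

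For miR-3549-5p, which faces miR-193a-3p, P10 libraries had 8.26, 6.72, 8.18, 7.41 and 10.4 CPM and adults 2.06 to 7.15 CPM with a median of 4.10, and adult replicate 6 reached into the P10 range (-0.99 ± 0.27, edgeR adjusted p = 0.00777). For miR-3595-3p, which faces the 5p arm of Mir376a in the Dlk1-Dio3 domain, P10 libraries had 56.5, 37.0, 67.8, 63.5 and 82.7 CPM and adults 27.1 to 52.5 CPM with a median of 43.0. Here P10 replicate 3 lay among the adults (-0.56 ± 0.21, edgeR adjusted p = 0.0378), and the call was lost under 12 of 21 alternatives (adjusted p up to 0.152).

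The row of miR-3554-3p faces miR-31a-5p, and that of miR-3554-5p faces miR-31a-3p, the other arm of the same gene. The major arm, miR-3554-3p, had 550.2, 715, 708, 613 and 662 CPM at P10 and 696 to 959 CPM with a median of 859 in adults. Adults were higher by 0.38 ± 0.11 on the log2 scale (edgeR adjusted p = 0.0126), with 1 adult library inside the P10 range, but by only 0.12 with library totals in place of TMM (adjusted p = 0.369). The minor arm, miR-3554-5p, had 22.1, 10.8, 7.91, 5.70 and 9.77 CPM at P10 and 5.53 to 6.77 CPM with a median of 5.96 in adults (-0.90 ± 0.32, edgeR adjusted p = 0.0321). P10 replicate 1, at 22.1 CPM, was far above the other pups, and without it the change was -0.49 (edgeR adjusted p = 0.0787). The call was lost under 9 of 20 alternatives (adjusted p up to 0.0813).

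The clearest rises faced the miR-200 family, which keeps cells epithelial by repressing the factors Zeb1 and Zeb2. Reads antisense to miR-3548-5p (chromosome 5, 176963408 to 176963429), facing the 3p arm of Mir200a, were at 454, 561, 871, 709 and 1061 CPM at P10 and at 1151 to 1747 CPM with a median of 1363 in adults. The groups did not overlap, although P10 replicate 6 came close (0.92 ± 0.20, edgeR adjusted p = 0.00185). The other arm, miR-3548-3p, averaged 37.7 ± 4.82 CPM in pups and 44.7 ± 3.38 CPM later and did not pass (0.25 ± 0.14, edgeR adjusted p = 0.164). Reads antisense to miR-3575-5p (chromosome 4, 224254378 to 224254395), facing miR-200c-3p, were at 59.1, 35.6, 63.0, 60.1 and 65.1 CPM at P10 and at 86.6 to 150.1 CPM with a median of 112 in adults. Again the groups did not overlap (0.99 ± 0.19, edgeR adjusted p = 0.000781), and P10 replicate 3 was low within its group. Its other arm, miR-3575-3p, did not pass (-0.13 ± 0.29, edgeR adjusted p = 0.713).

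**Figure D3:**
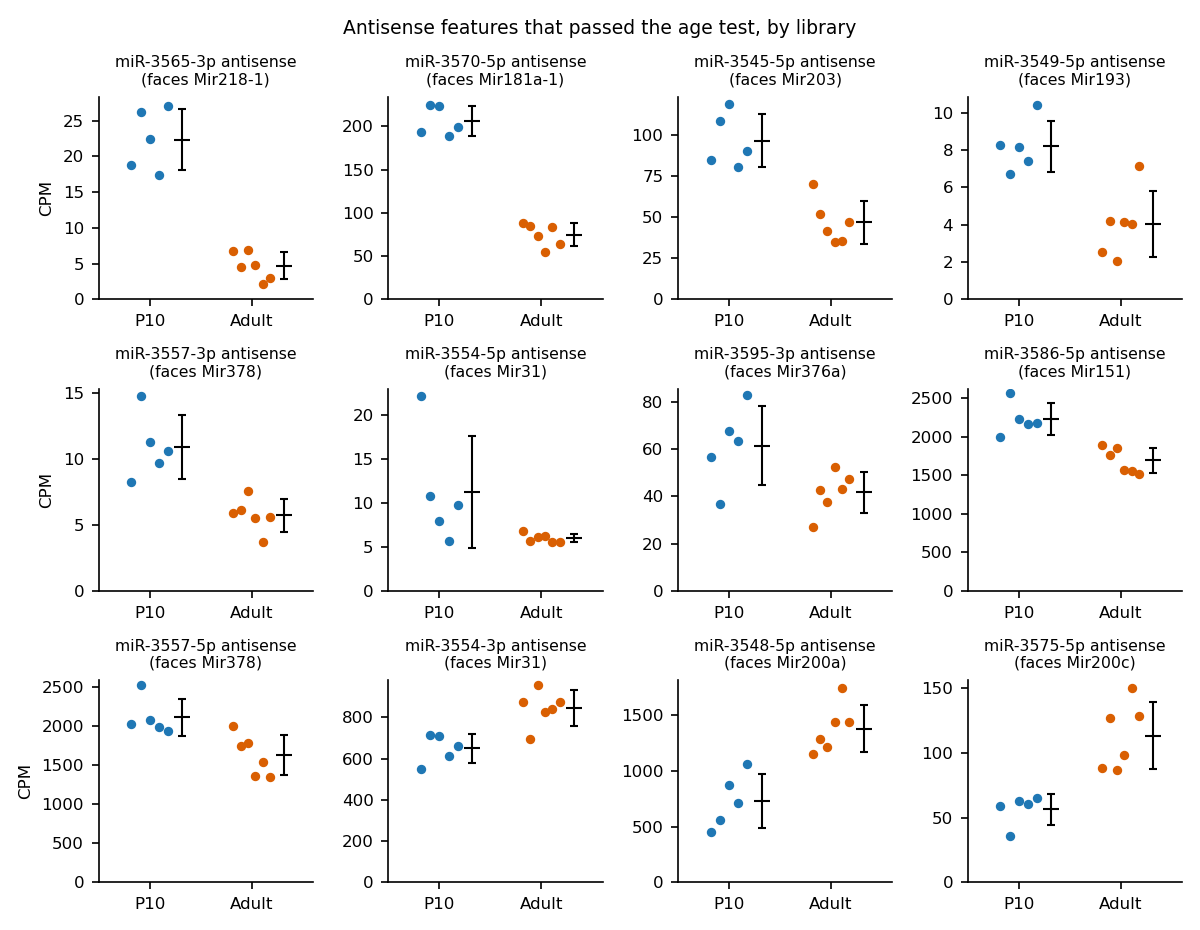
CPM (y axis, linear from 0, TMM-scaled) of the 12 antisense features that passed the age test is drawn for each P10 (blue, 5) and adult (orange, 6) library, with the mean and SD as black bars. The 2 ages do not overlap for 7 of them: miR-3565-3p, miR-3570-5p, miR-3545-5p, miR-3557-3p, miR-3586-5p, miR-3548-5p and miR-3575-5p.

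The most abundant row did not pass. Reads antisense to miR-3555-3p, on the strand of miR-191a-5p, were at 27230, 46133, 23800, 26294 and 27468 CPM at P10 and at 22540 to 33105 CPM with a median of 24465 in adults. Apart from P10 replicate 3 and adult replicate 1, the libraries of both ages lay close together (-0.23 ± 0.16, edgeR adjusted p = 0.252). Its change was -0.48 with library totals (adjusted p = 0.00321) and -0.07 with upper-quartile scaling (adjusted p = 0.730). Reads antisense to miR-3543-5p, on the strand of miR-434-3p, were at 10063, 7507, 10258, 13863 and 11665 CPM at P10 and at 6665 to 9533 CPM with a median of 8518 in adults, and P10 replicate 3 lay among the adults (-0.36 ± 0.14, edgeR adjusted p = 0.0533). Without P10 replicate 3 that change was -0.46 (edgeR adjusted p = 0.0156), and with upper-quartile scaling of all libraries it was -0.18 (edgeR adjusted p = 0.314).

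Rows facing Mir125b2, of a family abundant in muscle, nerve and connective tissue, did not pass on either arm. The miR-3588-3p row averaged 1648 ± 191 CPM in pups and 1723 ± 204 CPM later (0.06 ± 0.11, edgeR adjusted p = 0.643), and the miR-3588-5p row at 612 ± 75.2 and 715.5 ± 89.6 CPM (0.23 ± 0.12, edgeR adjusted p = 0.134). At the other copy, on chromosome 8, the sense row miR-125b-3p fell by 0.98 on the log2 scale (edgeR adjusted p = 0.0029), and miR-125b-5p stayed at 557 ± 116 and 556 ± 107 CPM. Reads of miR-125b-5p may come from both copies, and how the counting placed them is not known. Rows facing Mir210, a miRNA induced by low oxygen, were at 146 ± 32.4 and 117 ± 14.9 CPM for miR-3574-5p (-0.33 ± 0.16, edgeR adjusted p = 0.106) and at 9.41 ± 4.45 and 9.85 ± 2.93 CPM for miR-3574-3p.

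Of the 15 names in the Dlk1-Dio3 domain of chromosome 6, a maternally expressed miRNA cluster, 11 were tested, with 1 lower (miR-3595-3p) and 0 higher, and a median log2 fold change of -0.33, against 50.8% called and a median of -0.11 over all features. The CPM ranges of the 2 ages overlapped for all 11, and they did not for 30.0% of all features. The miR-3592-3p row (faces miR-382-5p) was at 229.7 ± 32.9 and 219 ± 27.3 CPM, miR-3578-3p (faces miR-369-5p) at 213 ± 63.5 and 236 ± 26.7 CPM, and miR-3578-5p (faces miR-369-3p) at 65.0 ± 27.6 and 83.0 ± 14.6 CPM. The row of miR-3579-5p (faces miR-380-3p) was at 64.2 ± 16.8 and 48.4 ± 6.6 CPM (edgeR adjusted p = 0.0833), and that of miR-3595-5p (faces miR-376a-3p) at 30.7 ± 10.3 and 28.8 ± 6.86 CPM. Means were lower in adults, without passing, at miR-3563-5p (faces miR-299a-3p, 19.7 ± 1.90 and 16.4 ± 3.86 CPM), miR-3592-5p (faces miR-382-3p, 19.7 ± 3.34 and 14.1 ± 4.16 CPM), miR-3576-3p (faces miR-539-5p, 12.2 ± 5.50 and 8.81 ± 2.47 CPM) and miR-3576-5p (faces miR-539-3p, 8.39 ± 1.90 and 6.68 ± 1.58 CPM), each P10 first and with SD over 5 and 6 libraries.

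The remaining features that did not pass lay outside that domain. The row of miR-3555-5p (faces miR-191a-3p) averaged 16.1 ± 2.20 CPM in pups and 12.1 ± 5.31 CPM later (edgeR adjusted p = 0.172). That of miR-3589-5p (faces Mir505) was at 20.4 ± 6.56 and 18.8 ± 3.38 CPM, and that of miR-3560-5p (faces miR-501-3p) at 9.85 ± 2.45 and 10.7 ± 4.08 CPM. Rows facing the neural miRNA miR-9a-5p were at 15.9 ± 5.64 and 21.9 ± 11.1 CPM for miR-3597-2-3p and at 6.03 ± 1.92 and 6.06 ± 2.37 CPM for miR-3597-3-3p, while miR-3597-1-3p had 22 counts in all.

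Other rows of the larger group were below the filter but reached 10 counts. They were miR-3579-3p with 107 counts (5.32 ± 2.71 CPM at P10 and 1.197 ± 0.476 in adults), miR-3563-3p with 91 (4.71 ± 4.52 and 1.81 ± 1.07), miR-3582-5p, facing the muscle miRNA miR-133a-3p, with 77 (2.53 ± 1.43 and 4.33 ± 4.90), miR-3565-5p with 33 (1.86 ± 0.732 and 0.489 ± 0.433), miR-3589-3p with 26, miR-3560-3p with 23, miR-3549-3p with 22 and miR-3591-3p, facing the liver miRNA miR-122-5p, with 21 (0.401 ± 0.605 and 1.21 ± 1.17). When all 898 features were tested without a filter, miR-3579-3p (-2.16 ± 0.44, edgeR adjusted p = 0.000637) and miR-33-3p (edgeR adjusted p = 0.00226) were called, while miR-3554-5p, miR-3557-5p and miR-3595-3p lost their calls (edgeR adjusted p = 0.0540, 0.0761 and 0.0857). That left 4 higher and 7 lower of the 75 names, against 97 higher and 120 lower of all 898 features.

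The 2 arms of a gene did not always move together. As a test added after seeing the data, the share of the 5p row among both antisense rows of a gene was compared between ages for 25 named antisense genes by a two-sided exact permutation test over all assignments of the libraries to the ages, with Benjamini-Hochberg adjustment over the 25. Of these 25 genes 40% passed, and of the 17 described here 6 passed. The miR-3548 gene (faces Mir200a) rose from 94.8% ± 1.27 to 96.8% ± 0.477 (exact permutation p = 0.00433, adjusted p = 0.0155). The miR-3575 gene (faces Mir200c) rose from 88.1% ± 5.25 to 94.7% ± 1.25, miR-3579 (faces Mir380) from 92.4% ± 3.69 to 97.6% ± 0.723, and miR-3554 (faces Mir31) fell from 1.77% ± 1.198 to 0.710% ± 0.0765, all 3 without overlap and at the smallest p that it can give (exact permutation p = 0.00216, adjusted p = 0.0108). The miR-3595 gene (faces Mir376a) went from 32.96% ± 3.40 to 40.7% ± 4.39 (exact permutation p = 0.00433, adjusted p = 0.0155), and miR-3557 (faces Mir378) from 99.5% ± 0.0684 to 99.6% ± 0.0739 (exact permutation p = 0.00866, adjusted p = 0.0271). In 5 of the 6, all but miR-3595, the arm with the larger share at P10 took a still larger share in adults. That holds for genes picked by passing and was no trend of all 17. Without passing, the mean share of the larger arm rose at miR-3555, miR-3560, miR-3563 and miR-3592. It fell at miR-3549, miR-3565, miR-3574, miR-3576, miR-3578, miR-3588 and miR-3589. Among the genes that did not pass, miR-3588 (faces Mir125b2) was at 27.2% ± 3.54 and 29.4% ± 2.85, miR-3574 (faces Mir210) at 94.0% ± 2.04 and 92.1% ± 2.44, and miR-3555 (faces Mir191) at 0.0562% ± 0.0157 and 0.0459% ± 0.0137.

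Each gene's most abundant antisense row was also set against its most abundant sense neighbour within 10000 bases, in a second test added after seeing the data. For 12 genes the log2 ratio of their counts was compared between ages, and 1 passed (8.33%). Next to the miR-3555-3p row, 457 bases away, lies the sense row of miR-425-5p, the partner of miR-191 in 1 cluster. It was at 143, 200.3, 256, 305 and 343 CPM at P10 and at 473 to 540 CPM in adults, a rise of 1.00 ± 0.19 on the log2 scale (edgeR adjusted p = 0.000716), and miR-425-3p rose by 0.69 (edgeR adjusted p = 0.0371). The log2 ratio of miR-3555-3p to miR-425-5p went from 6.94 ± 0.709 at P10 to 5.67 ± 0.255 in adults (SD, n = 5 and 6), a difference of -1.27, without overlap (two-sided exact permutation p = 0.00216, adjusted p = 0.0260 over 12). With the one-sided p doubled in place of counting assignments by absolute difference, the adjusted p was 0.0519.

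For the other 11 genes the ratio did not pass. The ratio of miR-3548-5p to miR-429-3p, of the Mir200b, Mir200a and Mir429 cluster, went from -1.12 ± 0.270 to -0.797 ± 0.187 (exact permutation p = 0.0433, adjusted p = 0.173), while miR-429-3p itself rose from 1538 ± 265 to 2392 ± 290 CPM (0.64 ± 0.13, edgeR adjusted p = 0.00115). The ratio of miR-3575-5p to miR-141-3p, the cluster partner of miR-200c, went from -8.98 ± 0.499 to -8.76 ± 0.399 (exact permutation adjusted p = 0.597), and miR-141-3p rose from 28846 ± 5868 to 48696 ± 4127 CPM (0.76 ± 0.13, edgeR adjusted p = 0.000325). The ratio of miR-3570-5p to miR-181b1-5p went from -2.49 ± 0.431 to -3.03 ± 0.434 (exact permutation adjusted p = 0.221). In the Dlk1-Dio3 domain, that of miR-3543-5p to miR-127-3p, its neighbour 2811 bases away, went from -3.19 ± 0.419 to -3.39 ± 0.262 (exact permutation adjusted p = 0.542), and that of miR-3595-3p to miR-381-3p from -4.65 ± 0.337 to -5.19 ± 0.219 (exact permutation p = 0.0195, adjusted p = 0.117).

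**Figure D4:**
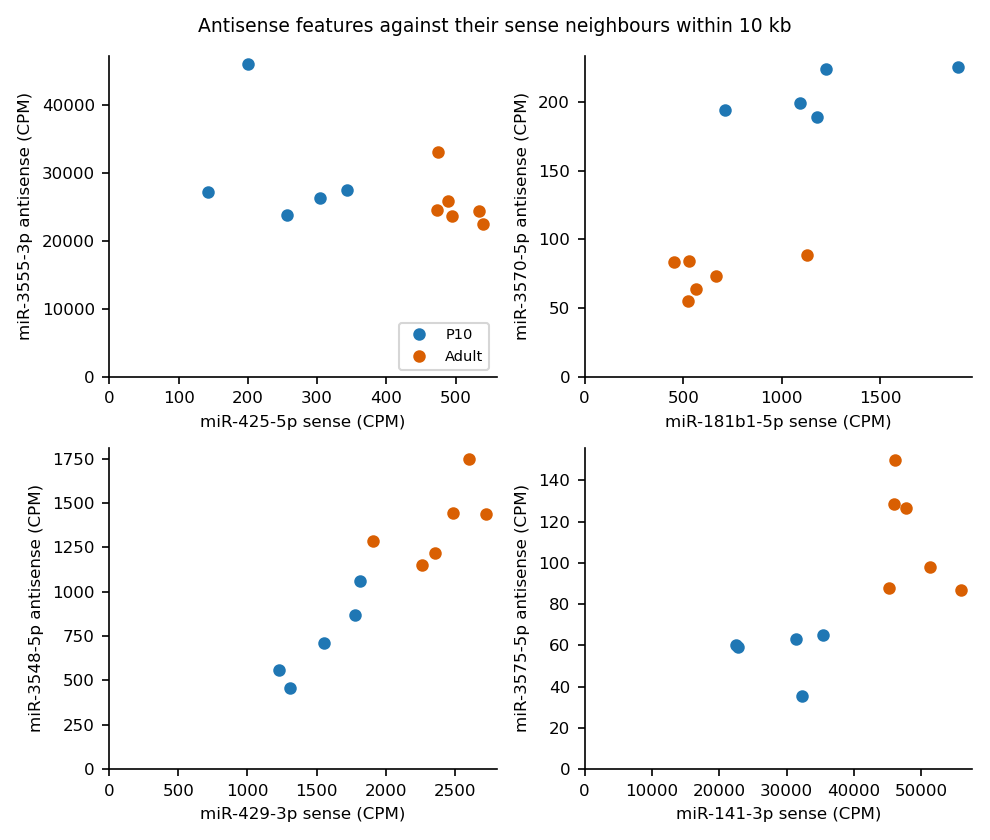
CPM of 4 antisense features (y axes) is drawn against that of a sense row within 10000 bases (x axes) in each P10 (blue) and adult (orange) library. In the first panel miR-425-5p lies at 143 to 343 CPM at P10 and at 473 to 540 CPM in adults, while the miR-3555-3p row shows no such separation, and in the lower panels both features are higher in adults.

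Finally, the antisense share of antisense plus sense counts was compared between ages for the 12 pairs of the whole table with at least 10 antisense counts, 7 of them described here. Of the 12, 8.33% passed, which is the 1 pair of miR-24-3p, a miRNA of the Mir23, Mir27 and Mir24 clusters. Its antisense counts were 7, 3, 3, 4 and 5 at P10 and 0, 1, 1, 1, 1 and 3 in adults, beside 580 to 1784 sense counts at P10 and 657 to 1704 in adults. The share was 0.491% ± 0.303 at P10 and 0.113% ± 0.0902 in adults (SD, n = 5 and 6), with the ranges apart by a narrow gap from 0.263% to 0.271% (two-sided exact permutation p = 0.00216, adjusted p = 0.0260). The call rests on 29 reads, the adjusted p was 0.0519 with the one-sided p doubled, and the sense row itself rose by 0.83 on the log2 scale (edgeR adjusted p = 0.000773).

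At miR-33-3p, a miRNA of an intron of the sterol regulator gene Srebf2, the 5 P10 libraries had 0 antisense counts and the adults had 2, 4, 0, 1, 11 and 1. Against the limit of 3 counts over the P10 group, the pooled adult level was 7.73-fold higher. It was 4.24-fold higher without adult replicate 5, which held 11 of the 19 reads. These folds take the adult reads as exact and leave out the spread between adult libraries, so they are not lower bounds. The share was 0% at P10 and 28.3% ± 23.5 in adults (two-sided exact permutation p = 0.0281, adjusted p = 0.113), while the sense row had 45 and 32 counts. For the 4 pairs that are nearly all antisense the share did not pass: miR-3548-3p was at 99.9% ± 0.268 and 99.7% ± 0.716 (exact permutation adjusted p = 1.0), miR-3575-3p at 99.0% ± 2.13 and 100%, miR-3563-3p at 98.7% ± 2.98 and 94.4% ± 13.6, and miR-3555-5p at 95.03% ± 6.56 and 94.4% ± 4.88. With at most 38 antisense counts a library in miR-3563-3p, a difference of a few percentage points was not detectable there.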

How the data were processed

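Small RNA of islets was sequenced from 5 P10 and 6 adult rats. Trizol RNA went into Illumina TruSeq small RNA libraries, per the labels' protocols, and the ligation and PCR of such kits favour some sequences. Raw read counts for each mature arm and place (Rnor_5.0, per the file headers) were deposited by the authors. DESeq, edgeR and rn5 appear without a role among the submitters' processing notes. Not given in the sources used here are the aligner, the antisense rule and the treatment of multi-copy reads. An antisense row was found to carry the place and strand of the annotated feature (40 of 40 pairs with a sense row). The series table matched 11 of 11 library files, and 0 columns belonged to other samples. Libraries of 1 age differed from each other by more than sampling noise (chi-square over its degrees of freedom at least 11.3).

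Rows of 1 name were merged to the highest count per library (898 features). edgeR 4.0.16 (R 4.3.3; filterByExpr at a minimum count of 10, TMM, robust quasi-likelihood, adult minus P10) was run on the whole table with Benjamini-Hochberg adjustment and a threshold of 0.05, and SE was the log2 fold change over the square root of F. CPM use TMM-scaled totals. Shares and log2 ratios within a library were tested by two-sided exact permutation of the absolute difference of means over all assignments of the libraries to the ages (smallest p 0.00216). Facing genes and sequences came from RefSeq (GRCr8) by gene name, for 77 of 77 rows by name, with a facing mature sequence for 39 of the 49 rows of the larger group. Coordinates stay in Rnor_5.0, and no genome was used. All tested rows and those with at least 10 counts are named with values, the others by their total. Features and lists were chosen with earlier results of these data known. The arm share and neighbour tests were added after seeing the data. Tests were checked on simulated data. Alternatives were DESeq2 1.42.0 and its size factors, library totals, upper quartile, other filters, limma 3.58.1, the replicate block, other row merging, scaling without antisense features, and leaving out each library.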

Additional observations from a re-analysis of the deposited data

Results flagged for a closer look

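Over the CPM of the 34 tested antisense features and the library shares of all 77 rows and of miR-3555-3p, 72 groups of 5 or 6 libraries were examined, and 6 had a library far from the others, where chance gives about 5%. P10 replicate 3 was the library in 4 of the 6. For miR-3555-3p antisense it had 46133 CPM against 23800 to 27468 in the other pups, for miR-3557-5p 2531 CPM against 1947 to 2085, for miR-3588-5p 743 CPM against 561 to 603, and for miR-3575-5p, where it was lowest, 35.6 CPM against 59.1 to 65.1. Adult replicate 1 had 33105 CPM for miR-3555-3p against 22540 to 25859 in the other adults. P10 replicate 5 had 17.1 CPM for miR-3574-3p against 5.61 to 8.70 in the other pups. Without P10 replicate 3, 4 of the antisense features were higher and 13 lower in adults, of 36 tested, against 88 higher and 134 lower of all 469 features tested.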

How the results depend on the processing

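Over 21 alternatives, 7 of the 12 called features kept their call in all that could be fitted, 9 of the 22 others passed under at least 1, and no call reversed. Library totals shifted the median log2 fold change of all features to -0.37 and upper-quartile scaling to 0.05, from -0.11. Library totals gave 16 antisense features lower and 2 higher (all features 54 higher and 187 lower), upper-quartile scaling 5 lower and 4 higher (all features 127 and 103), and DESeq2 5 higher and 7 lower (all features 127 and 121), against 97 higher and 135 lower of all features by edgeR. With 1 library left out, 3 to 4 were higher and 6 to 13 lower (all features 86 to 97 and 108 to 137). Replicate numbers did not pair the libraries (correlations of deviations -0.08, 0.20, -0.05, -0.21 and 0.20 for numbers 1, 3, 4, 5 and 6). A replicate block gave 3 higher and 8 lower (all features 93 and 112). Of the 7 pair shares described, 1 passed. With at least 50 antisense counts 0 passed, but that limit left out the passing pair, miR-24-3p with 29. Doubling the one-sided p also gave 0. By limma on log2 ratios 3 of these 7 passed (miR-24-3p, miR-33-3p and miR-3563-3p, adjusted p = 0.0488, 0.00509 and 0.00967 by limma) and 5 of the 12 in all. That fit gave every pair the same SE (0.462) and used unscaled counts with 2 added. The sense row of miR-3563-3p held 2 counts, so its ratio follows antisense count and depth and cannot decide on the share. Leaving out 1 library gave 0 to 2. There the smallest p of 4 or 5 against the rest cannot pass over 12 pairs for 1 pair alone. It therefore cannot show whether the miR-24-3p call is stable. The cause of these shifts was not tested. Depth limits the 41 untested names, and levels under a few CPM rest on few reads.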
